A study of Mus musculus with 13 samples.

Results

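ESR1 binding was examined at 10 genes that mark fibroblasts or are raised in myofibroblasts: Pdgfra, Pdgfrb, Thy1, Dpt, Pi16, Cd34, Acta2, Tagln, Postn and Ncam1. They were taken by name, and a peak belonged to a gene when its summit lay in the gene body or within 10 kb of either end (mm10, GENCODE vM21). These 10 genes were among 43138 annotated genes, of 55450, with at least 1 peak in such a window. They held 854 of the 686823 peaks in the 12 lists, and 166 of the 228284 regions formed by merging peaks that overlapped between lists.

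The peaks came from ChIP-Seq, which sequences DNA recovered with an antibody, here one to ESR1 (estrogen receptor alpha). The cells were primary fibroblasts at passage 1, called hernia-associated fibroblasts (HAFs), from the lower abdominal muscle of male Aromhum mice. All groups shared that genotype, a transgene of the human aromatase gene under several of its own promoters, put into FVB/N mice, through which estradiol is also made in muscle. The age of the mice was not given for these cultures, which were enriched for fibroblasts by preplating. Serum-starved cells were given fulvestrant (100 nM) or its solvent DMSO for 3 h and then estradiol (E2, 10 nM) or its solvent ethanol for 1 h, which made 4 treatments: vehicle, E2, E2 plus fulvestrant, and fulvestrant, with 3 libraries each. The labels did not say whether the libraries of a treatment came from separate mice or cultures, so p-values measure only the spread between these libraries. The input sample was not analysed here.

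ESR1 is a receptor that, once it binds estradiol, attaches to DNA at estrogen response elements, or is held there by other transcription factors, and changes the activity of nearby genes. Fulvestrant competes with estradiol for the receptor and leads to its degradation. Fibroblasts make the collagen-rich matrix between muscle fibers. When they become myofibroblasts they build contractile actin bundles and lay down more matrix, which is the hallmark of fibrosis in muscle.

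The sequences at 3 regions are shown first, because these regions had the largest rank differences with E2 among the 10 genes. Each is 100 bases either side of a summit, on the plus strand of GRCm38 (the assembly of mm10, from RefSeq). Capitals mark the half-site GGTCA of the estrogen response element on either strand and, upstream of Cd34, the whole stretch that comes nearest to a full element. The first pair lay in an intron of Ncam1 (minus strand), at chr9:49606569-49606769 and chr9:49608217-49608417, with summits from E2 replicate 2. The last lay upstream of Cd34 (plus strand) at chr1:194929948-194930148, with the summit from E2 plus fulvestrant replicate 2.
Ncam1 intron, 192 kb from the gene start: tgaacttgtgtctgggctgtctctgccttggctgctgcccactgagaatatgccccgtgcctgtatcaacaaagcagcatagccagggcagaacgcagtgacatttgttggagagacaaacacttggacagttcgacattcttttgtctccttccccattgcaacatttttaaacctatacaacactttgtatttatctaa
Ncam1 intron, 191 kb from the gene start: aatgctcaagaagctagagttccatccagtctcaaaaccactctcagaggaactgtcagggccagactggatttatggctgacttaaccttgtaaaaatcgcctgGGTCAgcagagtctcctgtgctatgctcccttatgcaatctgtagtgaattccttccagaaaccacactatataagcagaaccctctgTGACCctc
Cd34 upstream, 8.79 kb from the gene start: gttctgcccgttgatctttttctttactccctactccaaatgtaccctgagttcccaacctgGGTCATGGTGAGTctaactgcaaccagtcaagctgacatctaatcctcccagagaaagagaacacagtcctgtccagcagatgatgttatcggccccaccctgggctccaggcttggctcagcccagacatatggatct
The 192-kb window held no half-site and came no nearer than 3 mismatches to the full element GGTCANNNTGACC. The 191-kb window held 1 half-site on each strand. The Cd34 window held GGTCATGGTGAGT, which has 2 mismatches to the full element.

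The libraries were not alike. Fragments at a summit were recovered from the fold and p-value of each peak. The median background was 1.41 fragments in E2 replicate 1, 3.62 in fulvestrant replicate 2 and 5.65 to 7.37 in the other 10. Each median is over the peaks of a library's own list, so it is not a measure of depth alone. At the Tagln start, where all 12 libraries had a peak, background was 3.21 in E2 replicate 1. There it was 6.21 in fulvestrant replicate 2, within the 6.07 to 7.18 of the other 10. E2 replicate 1 and fulvestrant replicate 2 had the longest lists, 104571 and 80754 peaks against 34293 to 68971. Of their peaks, 59.4% and 27.9% were in repeat-masked sequence against 5.57% to 7.79%. In E2 replicate 1, 26.8% of the peaks in the regions of the 10 genes lay in a region of no other library, against 0% to 17.0% in the other 11 libraries. Both libraries stand apart, so results that rest on them are given with and without them.

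Binding around the 10 genes was dense. The median over them was 1.60 peaks per 10 kb of window per library, against 0.380 over 19600 protein-coding genes with a peak. Tagln had the highest density at 2.71, followed by Pdgfrb at 2.31 and Acta2 at 2.13. The windows also take in neighboring genes. The best summits of all 6 Tagln regions lay in Pcsk7 or Sidt2, though the region at chr9:45926686-45938160 also covered Tagln. Some Acta2 regions lay in Stambpl1 and some Pi16 regions in Mtch1. Thy1 at 0.265 and Ncam1 at 0.176 had the lowest, and the Ncam1 window was also the longest at 316.8 kb.

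The growth factor receptors came first in number of peaks. Pdgfra encodes the PDGF receptor alpha, the usual mark of fibroblasts, and lies on the plus strand at chr5:75152292-75198215. Its window had 14, 6 and 10 peaks in the vehicle libraries, 7, 17 and 20 with E2 alone, 9, 18 and 17 with E2 plus fulvestrant, and 9, 11 and 13 with fulvestrant. The lowest E2 value came from replicate 1, and the libraries given E2 overlapped those not given it. The mean was 14.7 ± 5.32 (SD, n = 6) with E2 and 10.5 ± 2.88 (n = 6) without it (exact permutation test, two-sided, p = 0.143). Without E2 replicate 1 the difference rose from 4.17 to 5.70 peaks (exact permutation p = 0.0346), and without both libraries that stand apart it was 5.80 (exact permutation p = 0.0635).

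Pdgfrb encodes the PDGF receptor beta, found on fibroblasts and on the pericytes around small vessels (chr18:61045150-61085061, plus strand). Its window had 11, 11 and 13 peaks with vehicle, 11, 18 and 14 with E2 alone, 7, 15 and 20 with E2 plus fulvestrant, and 10, 28 and 8 with fulvestrant. Fulvestrant replicate 2 held by far the most, and all treatments overlapped. The difference between libraries with and without E2 was 0.667 peaks (exact permutation p = 0.905).

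The surface proteins varied more among themselves. Thy1 encodes a small membrane glycoprotein used to sort fibroblasts (chr9:44043384-44048579, plus strand). It had 8 peaks in all: 2, 1 and 1 with vehicle, 2, 0 and 0 with E2 alone, 0, 1 and 0 with E2 plus fulvestrant, and 0, 1 and 0 with fulvestrant. Cd34 encodes a sialomucin of progenitor-like fibroblasts and of endothelium (chr1:194938819-194961279, plus strand). Its window had 9, 4 and 7 peaks with vehicle, 2, 6 and 10 with E2 alone, 5, 7 and 12 with E2 plus fulvestrant, and 7, 4 and 4 with fulvestrant, and all treatments overlapped (with against without E2, exact permutation p = 0.556).

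Ncam1 encodes the neural cell adhesion molecule, present on nerve, developing muscle and activated mesenchymal cells (chr9:49502136-49798925, minus strand). It was on the list because the study singles it out in relation to E2, so its direction here is not independent of the study. Its window had 6, 3 and 6 peaks with vehicle, 7, 7 and 8 with E2 alone, 6, 7 and 6 with E2 plus fulvestrant, and 4, 4 and 3 with fulvestrant. Every E2 library lay above every vehicle library, and Ncam1 was the 1 gene of the 10 for which this held, while 6.33% of all genes tested were higher with E2 than vehicle without overlap. The mean was 6.83 ± 0.753 (SD, n = 6) with E2 and 4.33 ± 1.37 (n = 6) without it (exact permutation p = 0.0130, adjusted over all genes 1), where 1.98% of genes tested were higher and 0.155% lower at an unadjusted p under 0.05. The gain was 1.83 peaks with repeat-masked peaks removed (exact permutation p = 0.115) and 0.667 within the 30000 best-ranked peaks of each library (exact permutation p = 0.578).

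Of the secreted and matrix genes, Dpt encodes dermatopontin, a matrix protein that marks fibroblasts shared by many tissues (chr1:164796644-164824266, plus strand). It had 6, 1 and 1 peaks with vehicle, 0, 10 and 8 with E2 alone, 1, 7 and 7 with E2 plus fulvestrant, and 6, 4 and 7 with fulvestrant. E2 replicates 2 and 3 held the most of the 12 libraries and E2 replicate 1 held none. Pi16 encodes a peptidase inhibitor of the adventitial progenitor state (chr17:29317680-29330593, plus strand). It had 7, 4 and 5 peaks with vehicle, 8, 3 and 8 with E2 alone, 3, 5 and 6 with E2 plus fulvestrant, and 3, 13 and 2 with fulvestrant, so the treatments overlapped.
Postn encodes periostin, a matrix protein of activated fibroblasts (chr3:54361109-54391037, plus strand). It had 10, 3 and 8 peaks with vehicle, 1, 8 and 10 with E2 alone, 4, 7 and 13 with E2 plus fulvestrant, and 5, 3 and 14 with fulvestrant. The treatments overlapped throughout, and the lowest and highest values came from E2 replicate 1 and fulvestrant replicate 3.

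Of the contractile genes, Acta2 encodes smooth muscle alpha-actin, the defining fiber of myofibroblasts (chr19:34241090-34255590, minus strand). It had 5, 6 and 11 peaks with vehicle, 0, 9 and 17 with E2 alone, 3, 6 and 11 with E2 plus fulvestrant, and 6, 5 and 9 with fulvestrant. The lowest and the highest of all 12 values were both E2 libraries. Tagln encodes transgelin, which binds actin in contractile cells (chr9:45929619-45936058, minus strand). It had 3, 6 and 8 peaks with vehicle, 4, 9 and 7 with E2 alone, 5, 10 and 8 with E2 plus fulvestrant, and 6, 9 and 11 with fulvestrant. Its mean was 7.17 peaks both with and without E2. For Dpt, Pi16, Postn, Acta2 and Tagln the exact permutation p for libraries with against without E2 was between 0.548 and 1.

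**Figure D1:**
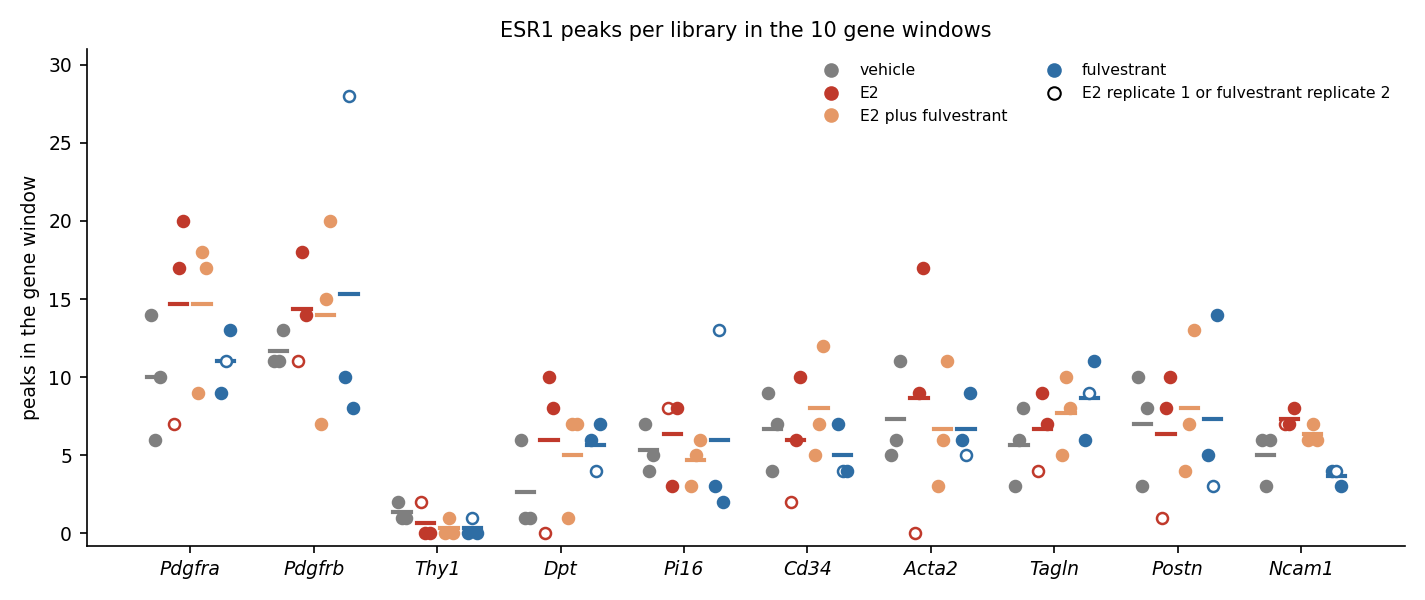
Number of ESR1 peaks in each gene window (vertical axis) for the 10 genes (horizontal axis), 1 point per library and a bar at each treatment mean of 3 libraries. Open points are E2 replicate 1 and fulvestrant replicate 2. In Ncam1 the 3 E2 libraries (7, 7 and 8 peaks) lie above the 3 vehicle libraries (6, 3 and 6). In the other genes the treatments overlap.

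Across the other comparisons, 0 of the 10 genes had libraries that did not overlap. With against without E2 the share of all genes was 0.127% higher and 0.00695% lower. For E2 against E2 plus fulvestrant it was 2.89% higher and 0.64% lower, and for fulvestrant against vehicle 2.07% and 0.394%. For E2 plus fulvestrant against vehicle it was 2.55% and 0.373%, and 0.438% of genes were lower with E2 than vehicle. Comparisons of 3 against 3 libraries cannot give an exact permutation p below 0.1. The vehicle libraries are shared by 3 of these comparisons. Without the pair of libraries that stand apart, E2 lay above vehicle without overlap in 4 of the 10 genes (Pdgfra, Pdgfrb, Dpt and Ncam1), where 12.5% of all genes did, and below it in Thy1, where 0.853% of all genes did. With 2 against 3 libraries the smallest possible exact permutation p is 0.1, and libraries separate more easily than with 3 against 3.

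Most of the 10 genes had a peak at their own start, though the share over all genes was not computed. A peak summit lay within 1 kb of the start of Tagln in all 12 libraries, of Acta2 and Postn in 11, and of Pdgfrb, Cd34 and Ncam1 in 10. The number was 9 for Dpt, 8 for Pdgfra, 6 for Thy1 and 3 for Pi16. Acta2 showed the widest range at its start. The vehicle libraries had 30, 41 and 56 fragments at that summit, E2 replicates 2 and 3 had 58 and 120, E2 plus fulvestrant 38, 30 and 53, and fulvestrant 54, 22 and 53, with no peak in E2 replicate 1. Tagln had 28, 31 and 35 fragments with vehicle, 19, 31 and 59 with E2 alone, 36, 26 and 39 with E2 plus fulvestrant, and 28, 32 and 33 with fulvestrant. E2 replicate 3 was the highest of the 12 at both contractile genes, and the treatments overlapped at both.

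**Figure D2:**
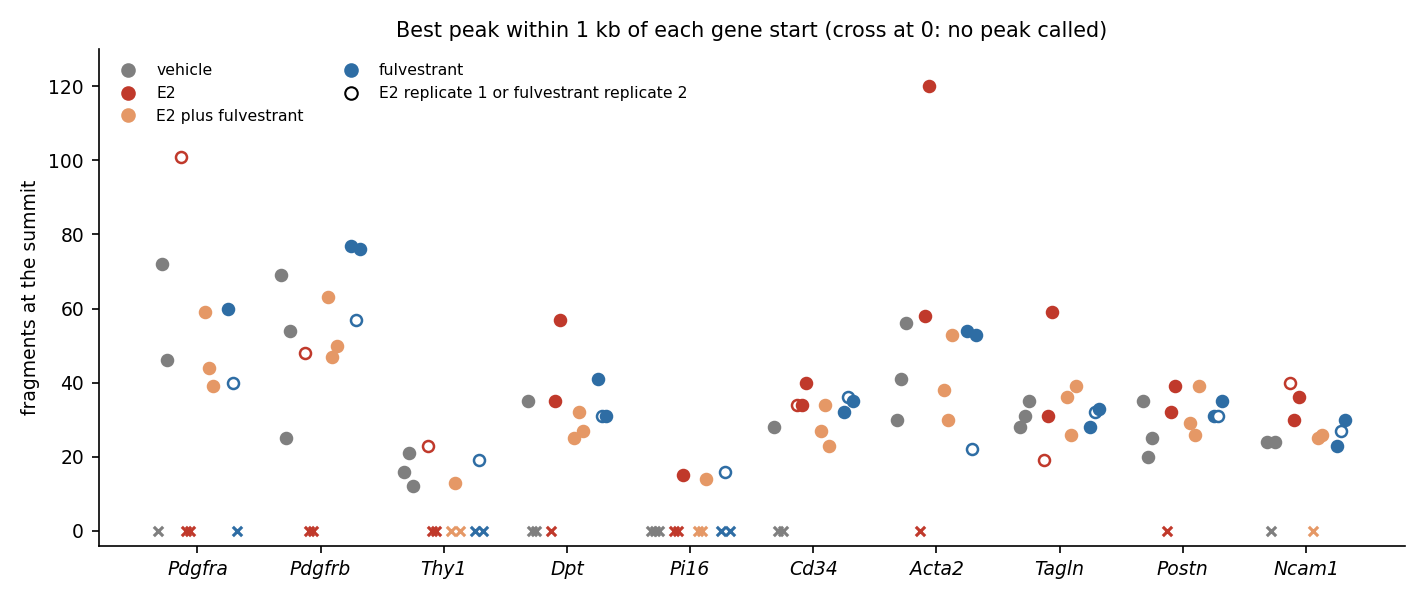
Fragments at the summit of the best-ranked peak within 1 kb of each gene start (vertical axis), 1 point per library. A cross at 0 marks a library with no peak called there, and open points are E2 replicate 1 and fulvestrant replicate 2. Acta2 reaches 120 fragments in E2 replicate 3, and Tagln has a peak in all 12 libraries.

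Over the first part of Pdgfra, binding covered a broad domain. Peaks merged into a region at chr5:75148016-75157562 that reached from the upstream flank past the gene start, with its best summit 3.83 kb into the gene. Of the bases within 100 bp of that summit, 84.1% were repeat-masked, and 10 libraries had a summit there, at chr5:75156010-75156156. The rank of a library is that of its best peak anywhere in the region, so summits up to several kb apart are compared. Within 1 kb of the start itself 8 libraries had a peak, and their ranks overlapped: 532 and 2543 with vehicle, 858 for E2, 1867, 5729 and 9137 for E2 plus fulvestrant, and 2150 and 8545 with fulvestrant. The median rank of the whole region, 858, was the best of any region of the 10 genes, where rank 1 is the peak with the highest −log10 q of a list. The ranks were 243, 470 and 858 with vehicle, 858, 1236 and 898 for E2 alone, 1315, 1516 and 1692 with E2 plus fulvestrant, and 515, 303 and 246 with fulvestrant. Libraries without E2 ranked it better, and only vehicle replicate 3 and E2 replicate 1 met, both at 858. The geometric mean rank was 1215 with E2 and 394 without it, a ratio of 3.08 (exact permutation p = 0.00433, adjusted over 29321 regions 0.460). As a percent of the list length the libraries overlapped, from 0.821% to 3.21% with E2 and from 0.375% to 2.16% without it (exact permutation p = 0.0433, adjusted 0.533).
The fold at this region did not follow the rank. It was 8.97, 6.81 and 5.83 with vehicle, 18.4, 8.25 and 8.54 with E2 alone, 6.39, 6.37 and 6.70 with E2 plus fulvestrant, and 7.28, 12.9 and 8.38 with fulvestrant. On the log2 fold scale the difference between libraries with and without E2 was 0.05 (exact permutation p = 0.844), while the median over the 7816 regions in all 12 libraries was 0.28 higher with E2. Without the pair of libraries that stand apart it was −0.04 (exact permutation p = 0.825), so its sign rested on them.

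By size, the largest rank differences with E2 lay in the introns of Ncam1, although over 12 libraries the p-value was smaller at Pdgfra. The first region, at chr9:49605175-49607646 and 192 kb from the gene start, had ranks of 5359, 5921 and 4024 with vehicle and 480 and 393 in E2 replicates 2 and 3. Ranks with E2 plus fulvestrant were 828, 609 and 751, and those with fulvestrant 11938, 56991 and 7588. E2 replicate 1 had no peak there. All 5 libraries given E2 that had a peak ranked it better than all 6 libraries without E2. The p-value depends on the rank after the end of its list given to E2 replicate 1 (exact permutation p = 0.0952). As a percent of the list length the exact permutation p was 0.621 over 12 libraries and 0.00794 without both libraries that stand apart (adjusted 0.111). Without both libraries that stand apart, the geometric mean rank was 11 times better with E2 (5 against 5 libraries, exact permutation p = 0.00794, adjusted 0.125), and this is the smallest p that 5 against 5 can give.
At the best summit the vehicle libraries had 40, 32 and 34 fragments and the fulvestrant libraries 33, 18 and 35. E2 replicates 2 and 3 had 111 and 123, and the libraries with E2 plus fulvestrant 60, 77 and 77. E2 plus fulvestrant thus lay between E2 alone and the libraries without E2, without overlap on either side. The fold was higher with E2 by 1.41 on the log2 scale over the same 10 libraries (exact permutation p = 0.00794, adjusted 0.0902), against a median of 0.23 over all 12029 regions present in those 10.

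Where within this region the summit lay also differed. In the 5 libraries with E2 the best summit fell between 192218 and 192294 bases from the gene start. In vehicle replicates 1 and 3 and fulvestrant replicates 1 and 3 it fell farther in, between 192972 and 193027 bases, in vehicle replicate 2 at 192234 and in fulvestrant replicate 2 at 192546. Fulvestrant replicate 3 listed a weaker summit at 192211 as well. A list names 1 summit for a peak, and the peaks of all 5 libraries with E2 spanned the farther position as well, so a weaker summit there would not be listed.

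The second Ncam1 region, at chr9:49607850-49608627 and 191 kb from the start, had ranks of 9387, 21320 and 26411 with vehicle and 596 and 1565 in E2 replicates 2 and 3. They were 4949, 1875 and 2218 with E2 plus fulvestrant and 13532 in fulvestrant replicate 1. E2 replicate 1 and fulvestrant replicates 2 and 3 had no peak. At the summit there were 25, 16 and 14 fragments with vehicle, 85 and 72 with E2 alone, 29, 43 and 47 with E2 plus fulvestrant, and 22 with fulvestrant. Every library with E2 that had a peak was above every library without E2, and E2 plus fulvestrant was again in between. The geometric mean rank was 7.13 times better with E2 over all 12 libraries (exact permutation p = 0.0368, adjusted 0.589) and 11.1 times better without the pair that stands apart (exact permutation p = 0.00794, adjusted 0.125). Leaving out 1 library in turn gave an exact permutation p between 0.00216 and 0.0758. As a percent of the list length the exact permutation p was 0.0736 over all 12 libraries (adjusted 0.599). On that scale it was 0.00794 without the pair that stands apart (adjusted 0.111).

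Another Ncam1 region, 265 kb from the start at chr9:49533306-49533898, lay in an intron where the annotation also has Gm11149. It had 24 and 26 fragments in vehicle replicates 1 and 3, 50 and 52 in E2 replicates 2 and 3, 44 and 46 in E2 plus fulvestrant replicates 2 and 3, and 23 in fulvestrant replicate 1. The other 5 libraries had no peak there. Its rank difference was within the spread over 12 libraries (exact permutation p = 0.139). Without the pair that stands apart its geometric mean rank was 3.52 times better with E2 (exact permutation p = 0.0476, adjusted 0.262), and without E2 replicate 1 alone 4.18 times (exact permutation p = 0.0238, adjusted 0.163). At the Ncam1 start itself, ranks were between 9382 and 35423 in the 10 libraries with a peak.

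**Figure D3:**
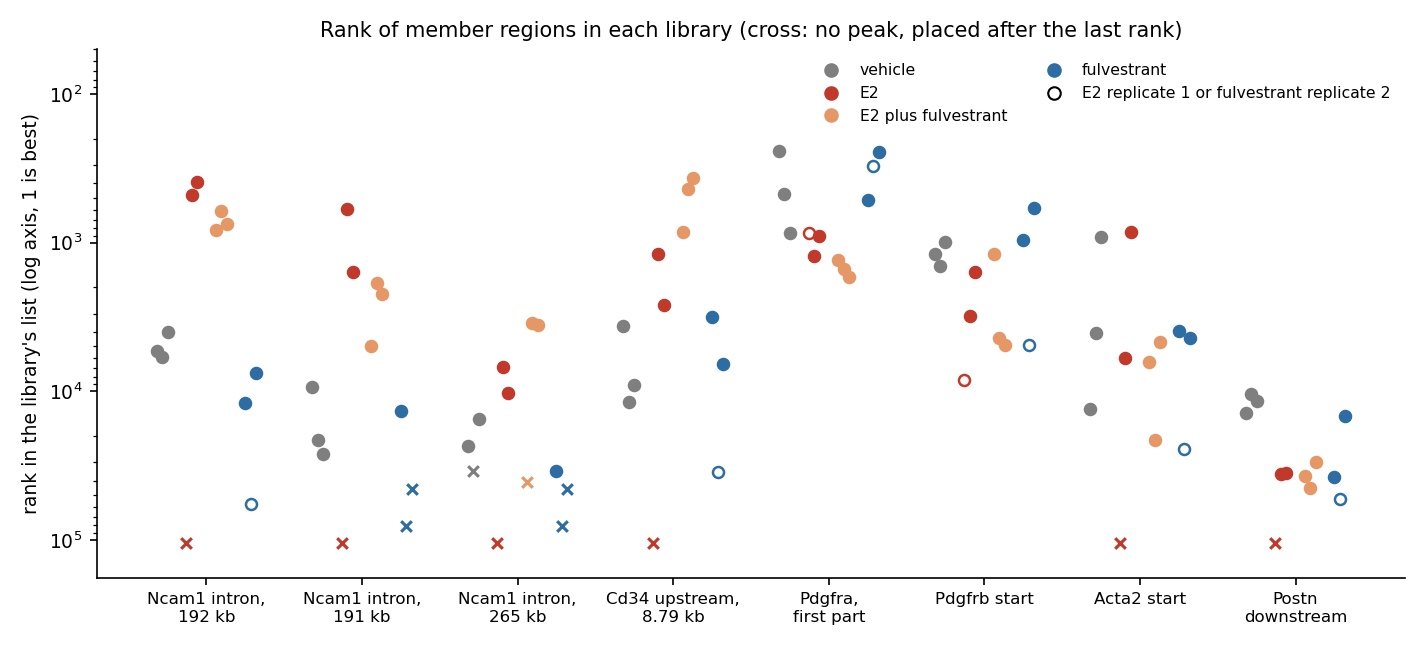
Rank of 8 regions in each library's list (vertical axis, log scale, best at the top), 1 point per library. Crosses mark libraries with no peak, placed after the last rank of their list, and open points are E2 replicate 1 and fulvestrant replicate 2. In the Ncam1 intron regions at 192 and 191 kb and upstream of Cd34, every library given E2 with a peak lies above the libraries not given E2. Over the first part of Pdgfra the order is the other way, with a vehicle and an E2 library both at 858.

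Cd34 had a further region of this kind, upstream at chr1:194929234-194931261. Its ranks were 3653, 11755 and 9023 with vehicle, 1191 and 2625 in E2 replicates 2 and 3, 845, 434 and 365 with E2 plus fulvestrant, and 3144, 34984 and 6547 with fulvestrant, with no peak in E2 replicate 1. By rank the libraries with E2 plus fulvestrant were ahead of those with E2 alone, but as a percent of the list length they overlapped, at 2.06%, 0.853% and 0.551% against 1.96% and 3.81%, and so did their fragments. Over 12 libraries the rank difference was within the spread (exact permutation p = 0.152). Without the pair that stands apart the geometric mean rank was 7.18 times better with E2 (exact permutation p = 0.00794, adjusted 0.125), and the fold was 1.11 higher on the log2 scale (exact permutation p = 0.00794, adjusted 0.0902).
Fragments at the first of its summits, near −8777 bases from the gene start, were 47, 24 and 24 with vehicle, 86 and 81 with E2 alone, 66, 94 and 111 with E2 plus fulvestrant, and 41, 23 and 41 with fulvestrant. The 3 vehicle libraries and fulvestrant replicates 1 and 3 also had a separate summit near −8247 bases, with 46, 27 and 27 fragments and 51 and 37 fragments. No library with E2 listed this summit, while the main peaks of the 5 libraries called there all spanned its position.

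**Figure D4:**
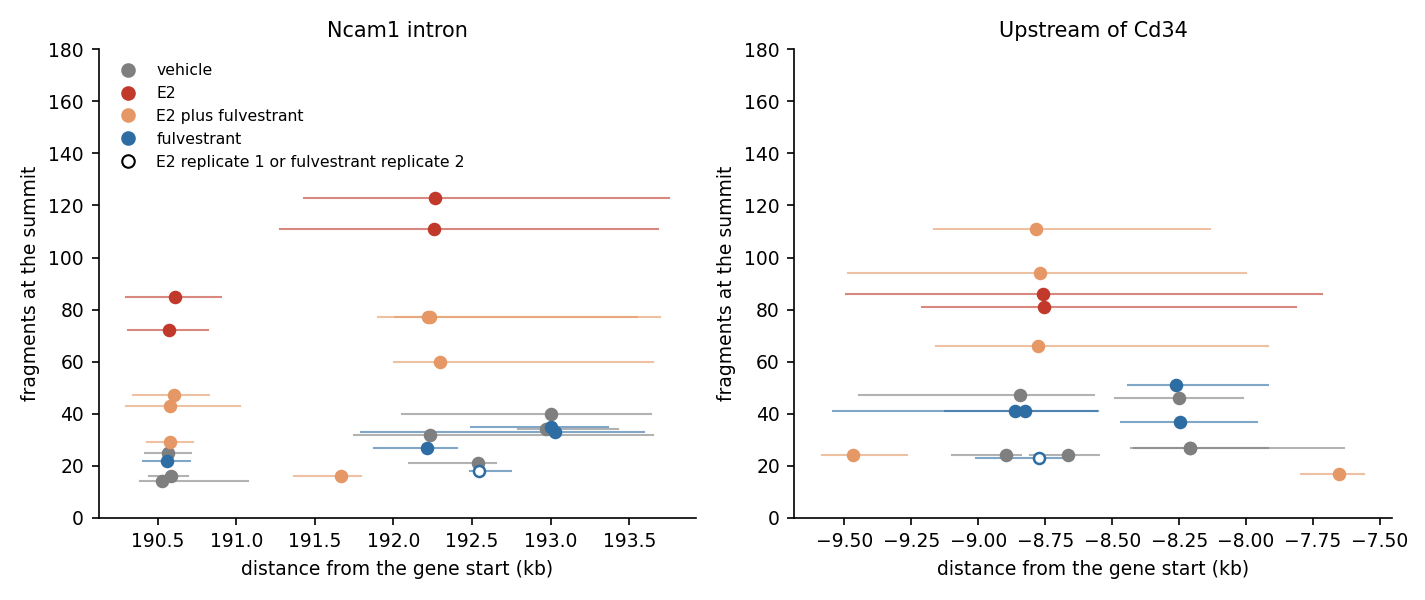
Fragments at each summit (vertical axis) against its distance from the gene start in kb, for the 192-kb and 191-kb regions of Ncam1 (left) and the region upstream of Cd34 (right). Points are summits, lines the extent of the peak, colors the treatments, and the open point is fulvestrant replicate 2. With E2 the highest points stand at 111 and 123 fragments in Ncam1. Libraries without E2 have further summits farther from the start in Ncam1 and nearer to it upstream of Cd34, none above 51 fragments.

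Over the 39 regions of the 10 genes that had a peak in at least 6 libraries, 1 ranked better with E2 at an unadjusted p under 0.05, where 2.38% of all 29321 such regions did. This was the 191-kb region of Ncam1. The number ranked better without E2 was 4, against 5.90% of all regions. None of the 39 had libraries that did not overlap over all 12, against 0.113% better with E2 and 0.375% better without it. Without the pair of libraries that stand apart, 3 of the 39 were better with E2 without overlap, the Ncam1 regions at 192 and 191 kb and the region upstream of Cd34, against 4.99% of all regions. In the other direction it was 1, over the first part of Pdgfra, against 1.35%. No region of the genome passed an adjusted p of 0.05 by the exact permutation test on ranks (smallest 0.444), and 697 regions were better and 1730 worse ranked with E2 at an unadjusted p under 0.05. The lists differ in length, and that balance depended on the scale. As a percent of the list length 2343 regions were better and 319 worse with E2. By fold, in the 7816 regions found in all 12 libraries, 629 were higher and 1 lower. The reason for the change between scales was not tested.

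**Figure D5:**
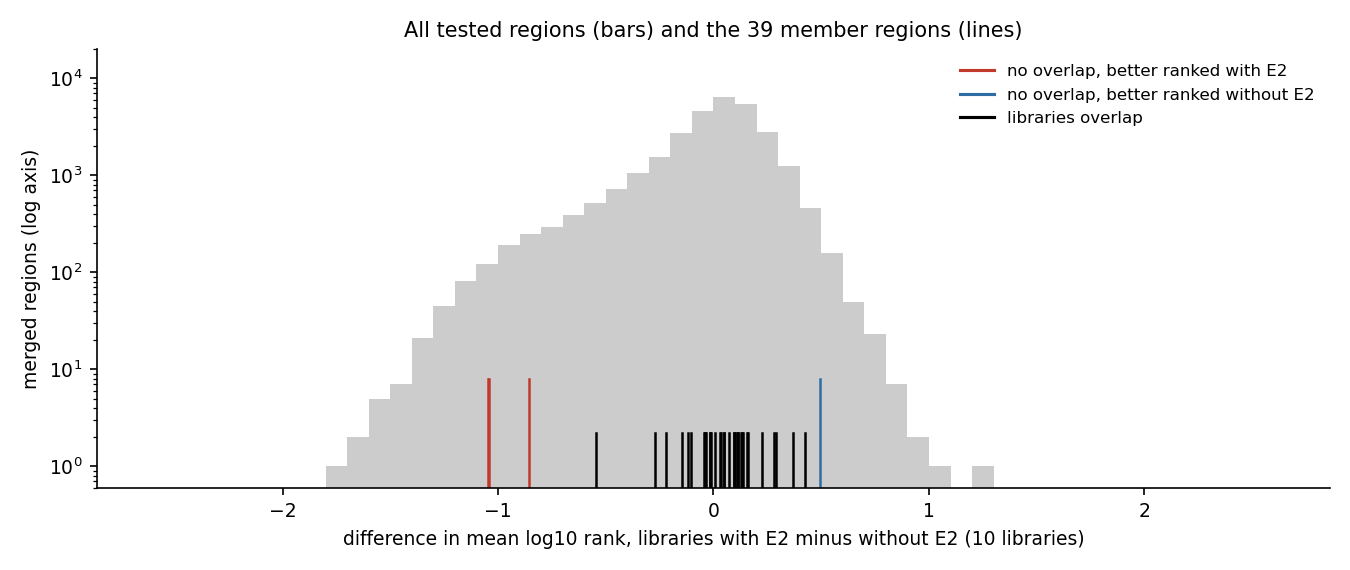
Number of merged regions (vertical axis, log scale) by difference in mean log10 rank between libraries with and without E2, without E2 replicate 1 and fulvestrant replicate 2. Values below 0 are better ranked with E2. Lines mark the 39 regions of the 10 genes: 3 better with E2 without overlap, with differences between −1.05 and −0.86, and 1 better without E2 at 0.50.

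Beside that over the first part of Pdgfra, the regions ranked better without E2 at an unadjusted p under 0.05 over 12 libraries were weak. They lay far from the gene starts, and none kept a p under 0.05 as a percent of the list length (exact permutation p = 0.0823 at Postn, 0.260 at Pdgfrb and 0.0671 at Cd34). The first lay 30.9 kb from the Postn start, past its end, at chr3:54391203-54392955. Its ranks were 13982, 10509 and 11606 with vehicle, 36235 and 35491 in E2 replicates 2 and 3, 37082, 44613 and 30032 with E2 plus fulvestrant, and 37549, 53301 and 14633 with fulvestrant, with no peak in E2 replicate 1. Vehicle was better than each of the other treatments without overlap, fulvestrant alone included (with against without E2, exact permutation p = 0.0433, adjusted 0.599). The second lay downstream of Pdgfrb, 45.1 kb from its start and 15282 bases from the start of Csf1r, with 12 to 16 fragments in each of 11 libraries (exact permutation p = 0.0455, adjusted 0.60). The last lay downstream of Cd34, 29.3 kb from its start where the annotation has Gm16897, and had 10 to 17 fragments in 7 libraries (exact permutation p = 0.0476, adjusted 0.60). The strong region at the Pdgfrb start did not pass over 12 libraries. Its geometric mean rank was 3189 with E2 and 1288 without it (exact permutation p = 0.0541, adjusted 0.607). Without the pair that stands apart it was again better ranked without E2, though the libraries overlapped (exact permutation p = 0.0159, adjusted 0.165).

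Presence alone showed little. Of the 166 regions, 82 (49.4%) were found in 1 library, against 64.2% of all regions, and 6 were found in all 12: those over the starts of Pdgfra, Pdgfrb and Postn, inside Pdgfrb 10.1 kb from its start, in Pi16, and at Tagln. The best summit of the Tagln region lay past the gene end, 8191 bases from its start and inside Pcsk7. None of the 166 was found more often with or without E2 by Fisher's exact test at an unadjusted p under 0.05, where 0.159% and 0.00219% of all regions were. A single region was in all 3 E2 libraries and no vehicle library, 2084 bases upstream of Pdgfrb, against 0.344% of all regions. It had 14, 27 and 22 fragments with E2, 21 and 30 in E2 plus fulvestrant replicates 1 and 2, and 19 in fulvestrant replicate 2. It was also the 1 region of the 166 that was in all libraries of one treatment and none of the other over 4 pairs of treatments, against 1.2% of all regions.

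Estrogen response elements were searched near the summits. None of the 166 held GGTCANNNTGACC with at most 1 mismatch within 100 bp of its best summit, which allows a share of up to 1.81%, against 1.36% of all 228284 regions. Among regions with a peak in at least 6 libraries it was 0 of 39 against 3.38%. When every peak was searched and not only the best of a region, 5 peaks in 3 regions had a match: 1 peak inside Pdgfrb, 3 in the region downstream of Pdgfrb, and 1 upstream of Pdgfra. This was 1.81% of the 166 regions, against 1.85% of all regions. Those 3 were also 7.69% of the 39 regions with a peak in at least 6 libraries, against 6.07% of all such regions. Allowing 2 mismatches, an alternative chosen after seeing the data, gave 11 of the 166 (6.63%) against 9.06% of all regions, the region upstream of Cd34 among them. The half-site GGTCA stood in 27.7% of the 166 windows and 29.0% of all windows on either strand.
Sites of other factors were also counted. The AP-1 site TGAGTCA was in 8 of the 166 windows (4.82%) against 3.79% of all, and the TEAD site GGAATG in 14 (8.43%) against 10.8%, both counted on either strand. The CArG box, through which serum response factor drives contractile genes, was in 1 window (0.602%) against 0.990% of all. Among regions with a peak in at least 6 libraries, the AP-1 site was in 0 of 39 against 5.61%. The TEAD site was in 3 of these (7.69%) against 12.2%. A match is a stretch of letters and not a measured site.

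Few genes of the wider fibroblast and contractile lists had libraries that did not overlap. Among 25 fibroblast companion genes, such as collagens, Dcn and Lum, 2 had more peaks with E2 than vehicle without overlap (Col1a1 and Col15a1), against the 6.33% of all genes, and the median difference was 0.667 peaks, the same as over all genes. Among 26 contractile companion genes, 1 had more (Tns1, which links actin to adhesions), and the median difference was 1.5 peaks. Between E2 and E2 plus fulvestrant, Meox1 of the first list and Myocd of the second had more peaks with E2 alone, and Flna had fewer, against 2.89% and 0.64% of all genes. Col1a1 also had more peaks with E2 plus fulvestrant than vehicle, against 2.55% of all genes. Cald1, which encodes an actin-binding protein, had fewer peaks with fulvestrant than vehicle (0.394% of all genes), and Cxcl12, a fibroblast chemokine, had more (2.07%). No gene of either list was apart between all libraries with and all without E2.

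Peaks at gene starts were also counted for markers of other cell types the cultures could hold; a peak is not a measure of expression. Between 14 and 19 of the 25 fibroblast companions had a peak within 1 kb of their start in a library, and between 11 and 17 of the 26 contractile ones. Of 10 markers each, it was 0 to 4 for muscle cells, 0 to 3 for endothelium, 0 to 2 for immune cells, 0 to 6 for pericytes and smooth muscle, and 1 to 7 for Schwann cells. E2 replicate 1 and fulvestrant replicate 2 each had 7 of the Schwann cell and 6 of the pericyte markers, against at most 2 in the other 10 libraries. Myh11, Lmod1 and Cnn1 were in both the contractile and the pericyte list. The part of other cells in the results above was not tested.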

How the data were processed

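ESR1 ChIP-Seq was compared in 12 libraries grouped by the treatment in their labels. Per the labels and the study's methods, the authors trimmed 75-bp single-end reads (Trimmomatic 0.39), aligned them to mm10 (Bowtie2), removed duplicates (Picard 2.21.4) and called peaks (MACS2 2.2.71). Each deposited list gave per peak a score (not used), the fold enrichment as a ratio over local background, and the −log10 p-value and −log10 q-value. Read totals were not given, so depth itself was not known. Fragments and background at summits were recovered instead: 100% of tested peaks gave a whole number within 0.002 of log10 p. Lists were kept by p-value, with a q-value above 0.05 for 5.64% to 26.1% of the peaks in a list. The labels gave no batch; the study's methods name a batch correction but not the batches.

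Ranks followed −log10 q within a list, and lists were compared by position and order. Ranks do not remove differences in list length, and read counts in peaks were not used here. Merged regions needed 1 bp of overlap. Peak numbers and log10 ranks (regions in at least 6 libraries; a library without a peak took the rank after its last) were compared by two-sided exact permutation tests and presence by Fisher's exact test, Benjamini-Hochberg adjusted over all genes or regions. Named regions were those at gene starts, the best ranked, those with an element, those in all libraries of one treatment and none of another, and those with an unadjusted p under 0.05; the Ncam1 regions at 192 and 265 kb and the region upstream of Cd34 are given also for their values. Members, lists and tests were chosen with earlier results of these data known. The code was tested on simulated data (Python 3.11.15, SciPy 1.17.1). Alternatives were other peak thresholds, windows, scales, left-out libraries and a replicate block.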

Additional observations from a re-analysis of the deposited data

Results flagged for a closer look

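Pdgfrb had 28 peaks in fulvestrant replicate 2, far above the other 5 libraries without E2 (8 to 13). In 3 regions E2 replicate 1 had no peak and stood apart from the other 5 libraries with E2, at the rank of 104572 given to it after the end of its list: upstream of Cd34, downstream of Postn, and the Ncam1 region at 192 kb. These 4 values came from 36 groups of 6 libraries checked, and chance alone would mark about 1 group in 20. The effect of E2 was also compared without and with fulvestrant for 18 values over 369600 assignments of libraries to treatments, and the smallest exact permutation p was 0.0887, downstream of Postn.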

How the results depend on the processing

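E2 replicate 1 decided most. Without 1 library in turn, genes apart without overlap ranged from 1 to 4 for more peaks with E2 than vehicle and 0 to 1 for fewer, 0 to 1 for E2 above E2 plus fulvestrant, 0 to 3 and 0 to 1 for E2 plus fulvestrant above and below vehicle, and 0 to 1 and 0 to 3 for fulvestrant above and below vehicle; genes with p under 0.05 (with against without E2) ranged from 1 to 2. Regions better ranked with E2 ranged from 0 to 4 and without E2 from 1 to 5. Over all regions the same settings gave 1.26% to 14.0% and 4.90% to 6.94%, both highest without E2 replicate 1. Regions present with E2 and not vehicle ranged from 1 to 6, and regions apart in any pair from 1 to 8. Those more often with E2 by Fisher's test ranged from 0 to 1, and from 417 to 1984 over all regions. For the other ranges no share over all genes or regions is given, so they have no background beside them. Without E2 replicate 1 alone, 4 of 39 regions were better ranked with E2 and 2 without, against 14.0% and 6.94% of all regions. Without both libraries that stand apart, the counts were 4 and 1 (E2 above and below vehicle, 12.5% and 0.853% of all genes), 1 (E2 above E2 plus fulvestrant, 6.39%) and 3 (fulvestrant below vehicle, 1.47%). In that setting 4 of 39 regions were better ranked with E2 (11.6% of all regions) and 4 without it (6.56%). Of 143 regions, 2 were more frequent with E2 by Fisher's test (1.93%), 6 present with E2 and not vehicle (6.22%) and 9 apart in any pair (8.46%).

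At −log10 q of at least 10, the counts were 0 (E2 above vehicle) and 1 (E2 plus fulvestrant above vehicle). Of 24 regions at that threshold, 1 was more frequent with E2 by Fisher's test, as were 390 of all 34274. None was present with E2 and not vehicle. E2 above vehicle was also 0 within 30000 peaks, in gene bodies and without repeat-masked peaks, and 1 gene was lower within 30000 peaks. Genes with p under 0.05 were 0 at a q-value of at most 0.05, within 30000 peaks and without repeat-masked peaks. With summits merged within 200 bp, 2 of 331 regions were present with E2 and not vehicle, and 7 were apart in any pair. In that setting 1 was more frequent without E2 by Fisher's test, as were 186 of all 305574. For the other counts up to this point in the paragraph no share over all genes or regions is given, so they have no background beside them. As a percent of list length, 1 region was better ranked without E2, against 1.09% of all regions. Once both libraries were left out, an alternative chosen after seeing the data, it was 4 with and 1 without, against 17.4% and 1.24%. In the 6 regions found in all 12 libraries, 0 were better with and 1 without E2 by rank, against 1.94% and 12.2% of all such regions. By fold it was 0 and 0, against 8.05% and 0.0128%. In the 10 libraries left, also chosen after seeing the data, it was 2 and 0 of 13 regions by fold, against 20.8% and 0.0166%. The cause was not tested.

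Some differences turned direction, none of them with an unadjusted p under 0.05 after the turn. Pi16 became 0.667 and 0.333 at the stricter q-values, 0.80 without both libraries and lay between −0.9 and 1.3 without 1 library; Thy1 became 0.167 at −log10 q of at least 10 and in its gene body. Within 30000 peaks Pdgfrb became −2.5, Cd34 −1.17, Acta2 −2 and Ncam1 (E2 against vehicle) −0.333. Acta2 became −0.333 without repeat-masked peaks and lay between −1.2 (without E2 replicate 3) and 2.2 (without E2 replicate 1), and Pdgfrb between −0.5 and 3.57 (without fulvestrant replicate 2). By fold the region over the first part of Pdgfra became −0.0549 and the region downstream of Pdgfrb −0.0249 (negative is higher with E2).

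Replicate numbers were shared between treatments. Of 18 same-numbered pairs 7 had a correlation above 0.1, against 6 of 36 other pairs; since not every pair did, the numbers were not taken to pair the libraries. With the replicate block, 1 and 3 regions were better ranked with and without E2, against 1.91% and 5.35% of all regions. Ncam1 peak numbers then gave an exact permutation p of 0.0370. A repeat-rich list with a low background limits E2 replicate 1 most.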
